A study of Homo sapiens with 4 samples.

Results

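Spheroids of the colorectal cancer line HCT116 were compared with spheroids of HCEC-1CT, the line from colon that is not cancerous, in tables of 58740 genes and 207345 transcripts. The comparison used 2 of the 4 libraries of the study, and DLD-1 and SW620 spheroids, the other cancer lines, were used to find what set HCT116 apart. Values are FPKM, fragments scaled to transcript length and library size. Ratios are log2 ratios of FPKM + 1 to HCEC-1CT, so the change of a low gene is understated, and 18637 genes with 1 FPKM or more in 1 or more libraries were compared. A gene was called HCT116-only when its ratio was 4-fold or more in HCT116 and under 2-fold in either direction in DLD-1 and in SW620; 319 of the 18637 genes met that rule, 277 of them higher and 42 lower than in HCEC-1CT. Where 4 values follow each other, they stand for HCEC-1CT, HCT116, DLD-1 and SW620 in that order. Where 3 ratios follow each other, they stand for HCT116, DLD-1 and SW620.

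Each line gave 1 library, so no spread between samples could be measured, no test was possible, and every difference is one between libraries. HCEC-1CT cells were taken from normal colon and made immortal with CDK4 and telomerase. HCT116 and DLD-1 derive from colorectal carcinomas, and SW620 derives from a lymph node metastasis. All 4 lines are labelled wild type and epithelial, without a further treatment or allele, and all had the same culture: 7 days in low-attachment plates of 24 wells with 10% fetal bovine serum, after which compact spheroids were collected by eye and the RNA of 2 plates was combined. Each line therefore stands as a single culture of a single line, and all ratios share the HCEC-1CT library.

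HCT116 is a mismatch repair deficient line. It has mutant beta-catenin and intact APC, whereas DLD-1 and SW620 carry truncated APC. Cancer-testis genes such as the MAGE family are silent in most adult tissues outside the germline, and methylation of CpG sites in their promoters is a known part of that silence. TXNIP, which restrains glucose uptake and inhibits thioredoxin, is switched on by the glucose-sensing factors MondoA and ChREBP through a carbohydrate response element in its promoter.

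The genes on which the HCT116 results turn are shown here by the 250 bases before a RefSeq transcription start (GRCh38.p14), 5′ to 3′ on the gene's strand. GTSF1, MAGEB2 and MAGEA3 are germline or cancer-testis genes detected well in HCT116 alone, NNT and CBR1 were listed at 0 in HCT116 alone, and TXNIP was listed at 0 in HCT116 and high elsewhere. Capitals mark each CpG in the first 5 sequences, and in TXNIP the match to the carbohydrate response element, searched on both strands as the boxes CACGNG and CNCGNG with 5 bases between them. The regions are chr12:54473603-54473852 (minus strand), chrX:30215313-30215562 (plus strand), chrX:152698544-152698793 (plus strand), chr5:43602425-43602674 (plus strand), chr21:36069774-36070023 (plus strand) and chr1:145996580-145996829 (minus strand).
GTSF1 promoter: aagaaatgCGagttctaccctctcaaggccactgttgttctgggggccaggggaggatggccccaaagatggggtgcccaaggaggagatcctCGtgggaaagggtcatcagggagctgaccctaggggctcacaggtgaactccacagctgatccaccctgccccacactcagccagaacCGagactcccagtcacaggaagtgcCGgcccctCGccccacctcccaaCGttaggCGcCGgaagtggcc
MAGEB2 promoter: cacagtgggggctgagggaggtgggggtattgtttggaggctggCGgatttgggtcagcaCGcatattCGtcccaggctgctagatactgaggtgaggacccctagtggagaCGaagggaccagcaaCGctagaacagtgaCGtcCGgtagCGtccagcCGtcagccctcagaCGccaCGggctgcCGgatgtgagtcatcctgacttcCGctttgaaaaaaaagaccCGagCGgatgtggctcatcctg
MAGEA3 promoter: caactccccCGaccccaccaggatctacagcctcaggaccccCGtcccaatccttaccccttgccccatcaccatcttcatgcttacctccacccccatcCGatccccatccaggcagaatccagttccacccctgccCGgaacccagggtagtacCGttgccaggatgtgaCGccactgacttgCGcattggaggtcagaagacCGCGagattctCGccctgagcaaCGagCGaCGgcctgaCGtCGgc
NNT promoter: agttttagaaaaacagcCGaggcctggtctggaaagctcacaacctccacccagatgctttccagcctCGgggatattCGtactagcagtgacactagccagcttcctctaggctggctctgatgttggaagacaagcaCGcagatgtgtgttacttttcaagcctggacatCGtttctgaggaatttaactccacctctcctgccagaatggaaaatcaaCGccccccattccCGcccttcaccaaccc
CBR1 promoter: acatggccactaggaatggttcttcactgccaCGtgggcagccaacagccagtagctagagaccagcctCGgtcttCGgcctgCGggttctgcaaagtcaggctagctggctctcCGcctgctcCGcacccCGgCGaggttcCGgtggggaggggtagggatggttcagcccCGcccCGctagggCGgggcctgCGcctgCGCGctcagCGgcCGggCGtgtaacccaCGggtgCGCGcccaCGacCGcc
TXNIP promoter: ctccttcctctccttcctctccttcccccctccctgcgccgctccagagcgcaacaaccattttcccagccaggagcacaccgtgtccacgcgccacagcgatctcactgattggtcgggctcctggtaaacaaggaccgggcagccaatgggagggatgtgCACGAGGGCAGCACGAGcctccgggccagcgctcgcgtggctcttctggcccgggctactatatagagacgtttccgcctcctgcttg

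These windows held 8 CpG in GTSF1, 15 in MAGEB2, 15 in MAGEA3, 7 in NNT and 23 in CBR1, beside a median of 11 over 35097 RefSeq promoters of the same length, of which 93.9% held at least 1. The carbohydrate response element matched 1 time in the TXNIP window and in 149 of the 35097 promoters (0.425%); CpG sites lie inside the match. The same search gave 0 matches in the window of ARRDC4, another target of MondoA described below. Promoter methylation and factor binding were not measured, so the sequences are a description. Of the HCT116-only genes, 155 of 277 higher and 31 of 42 lower genes had a RefSeq promoter, too few for a comparison of promoter composition over the set.

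From the steps of low values, 1 FPKM of a 2 kb transcript stood for 59.0, 50.6, 46.7 and 57.5 fragments. Genes of the mitochondrial genome held 10.6% of the summed FPKM in HCT116 and 1.79% to 3.91% in the other libraries. None of 102 housekeeping and ribosomal protein genes was listed at 0 in any library (0 of 102), whereas 9 genes with 5 FPKM or more in the other 3 libraries were listed at 0 in HCT116, beside 56 in HCEC-1CT, 11 in DLD-1 and 6 in SW620. The label "epithelial" held for HCT116 and not for HCEC-1CT by their markers. Over all 18637 genes, 26.9% were 2-fold or more higher and 13.1% lower in HCT116. The shares were 25.9% and 12.9% for DLD-1, and 24.8% and 14.1% for SW620, with median ratios of 0.27, 0.33 and 0.21; every count of a gene list below is to be read beside these. All 20 epithelial markers were 2-fold or more higher in HCT116, and the defining ones EPCAM (0 and 144 FPKM), CDH1 (0 and 27.2) and KRT19 (0 and 567) were listed at 0 in HCEC-1CT. Of 15 fibroblast and pericyte markers 13 were 2-fold or more lower in HCT116, with COL1A2 at 208 FPKM in HCEC-1CT and 0 in HCT116. In bulk RNA of a single line, fewer expressing cells and less RNA per cell cannot be told apart, and every ratio below is to HCEC-1CT.

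HCT116 differed from HCEC-1CT by 4-fold or more in 1684 genes that were higher (9.04% of the 18637) and 933 that were lower (5.01%); the shares were 9.24% and 5.57% in DLD-1 and 8.93% and 5.49% in SW620. Of the higher genes, 500 were also 4-fold higher in both DLD-1 and SW620, 523 in 1 of them and 661 in neither. Of the lower genes, 558 were shared with both, 223 with 1 and 152 with neither. In 384 of the 661 and 110 of the 152, at least 1 other line was 2-fold or more from HCEC-1CT. These counts take both directions, so they include genes that moved the opposite way there, such as TXNIP and CPA4. The median ratio over 10409 genes with 1 FPKM or more in every library was 0.34, 0.37 and 0.26; all ratios include that shift. With median-ratio scaling, which removes it, the split in HCT116 was 1355 higher and 1187 lower.

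Most of the 12 largest increases in HCT116 were epithelial genes, among them KRT19, KRT8, EPCAM, SFN, SPINT2 and ST14. LSR, a receptor of tricellular junctions, was listed at 0.225, 151, 36.03 and 33.9 FPKM. Most of the LSR value in HCT116 (79.5%) came from a transcript that GENCODE 29 does not hold. NPW, the precursor of neuropeptide W, stood at 0.428, 156, 0.127 and 8.24 FPKM, so HCT116 was far above the other 3 libraries. Apart from PTGS2, a prostaglandin synthase, the 12 largest decreases were secreted proteins (chemokines, interleukins, metalloproteinases and others) that were abundant in HCEC-1CT, such as CXCL5 (3320.3, 0, 76.2 and 0.348 FPKM) and CSF3 (740.3, 0, 0 and 0.182 FPKM). Both were low in the other cancer lines too, though CXCL5 kept 76.2 FPKM in DLD-1.

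**Figure D1:**
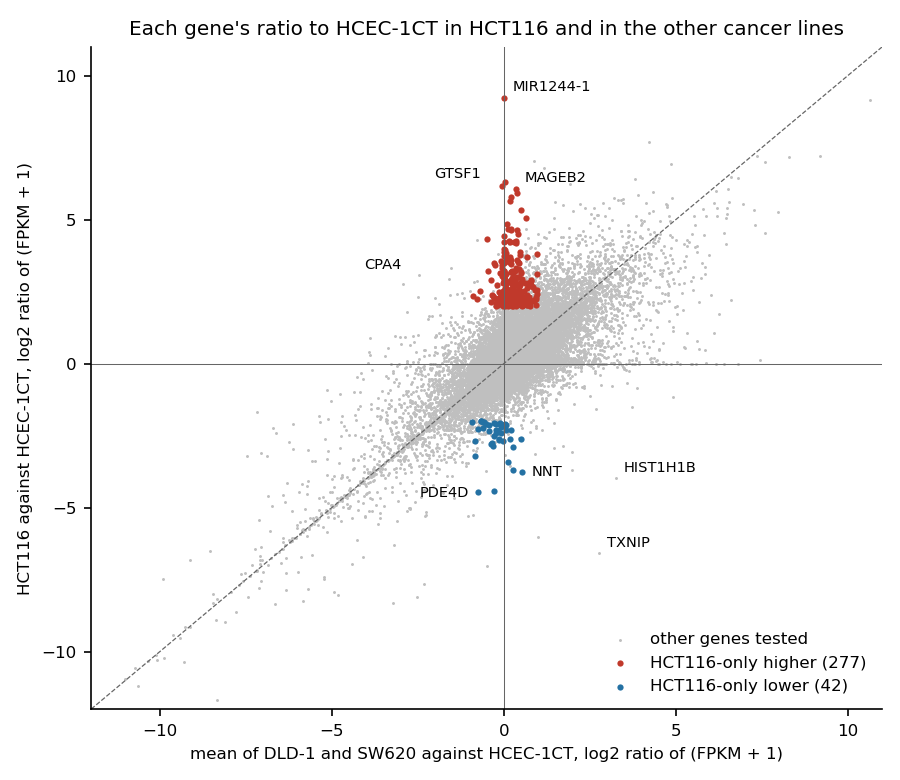
Each point is 1 of 18637 genes, with the mean of its DLD-1 and SW620 log2 ratios to HCEC-1CT on the x axis and its HCT116 log2 ratio on the y axis; the dashed line marks equal ratios. The 277 HCT116-only higher genes (red) and 42 lower genes (blue) lie in a narrow band around x = 0, as the rule sets, and TXNIP and HIST1H1B lie at the lower right, below HCEC-1CT in HCT116 and above it in the other lines.

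The HCT116-only set was uneven in direction: 277 genes were higher (1.49% of the 18637) and 42 lower (0.225%). The same rule gave 296 higher (1.59%) and 71 lower (0.381%) DLD-1-only genes and 255 higher (1.37%) and 57 lower (0.306%) SW620-only genes. Protein-coding genes made up 214 of the 277 and 36 of the 42. Most of the higher genes came from almost nothing: 229 of the 277 were under 1 FPKM in HCEC-1CT and 106 were listed at 0 there, while 95 reached 10 FPKM or more in HCT116. Their median ratio was 2.42 (range 2.00 to 9.24), and that of the lower genes was -2.33 (range -4.47 to -2.002), with 12 of the 42 listed at 0 in HCT116. Since the rule fixes these sizes, they are a description. Just inside the rule lay XLOC_042337 and CASC8, with ratios of 2.00 and 2.00, and just outside it MED12L and HEYL, with 1.99 and 1.99. On the lower side TNS2 and NCSTN lay just inside, with -2.002 and -2.01, and RF00560 and ABCC3 just outside, with -1.97 and -1.97. The set leans on the pseudocount: with 0.1 FPKM in place of 1, 330 higher genes were called, of which 109 were among the 277.

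Germline and cancer-testis genes led the HCT116-only increases among protein-coding genes. GTSF1, which acts with the PIWI proteins in silencing transposons in the germline (ENSG00000170627, chromosome 12, 54455950 to 54473602, hg38 as for all positions), was listed at 0, 77.7, 0 and 0.0603 FPKM. MAGEB2, an X-linked MAGE family gene (ENSG00000099399, chromosome X, 30215560 to 30220089), was listed at 0, 66.8, 0 and 0.627 FPKM, and its neighbour MAGEB1 at 0, 10.4, 0 and 0 FPKM. HCT116 was the only library in which any of the 3 reached 1 FPKM. MAGEA3 (chromosome X, 152698752 to 152702347) was listed at 0, 18.2, 0 and 0.221 FPKM, MAGEA2 at 0, 13.6, 0 and 0 FPKM and the adjacent CSAG3 at 0, 14.6, 0 and 0 FPKM. PRAME, a cancer-testis antigen on chromosome 22, was listed at 0, 17.1, 0 and 0.621 FPKM. Of 40 germline and cancer-testis genes in the list, 30 did not reach 1 FPKM in any library, so expression was limited to a few members. The 5 HCT116-only members (GTSF1, MAGEA3, MAGEB1, MAGEB2, PRAME) entered the comparison through their HCT116 value, so their ratios follow from being detected. MAGED1, a broadly expressed MAGE gene, went the other way at 49.98, 21.6, 13.8 and 44.5 FPKM. The MAGEA and CSAG genes have near-identical copies, among which the counting could split fragments, so their single values are less certain than their sum.

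The MAGE and CSAG genes were also the longest chain of neighbours. Of the 277 higher genes, 34 lay in 14 runs of genes adjacent among the genes compared. The longest run had 6 genes, from GABRQ to CSAG3 on chromosome X between 152638183 and 152760222 (GABRQ, MAGEA3, CSAG2, MAGEA2B, MAGEA2 and CSAG3). A run of 3 on chromosome 6, 32439842 to 32589848, held the MHC class II genes HLA-DRA, HLA-DRB5 and HLA-DRB1. HLA-DRA, the alpha chain of HLA-DR, which presents peptides to helper T cells, was listed at 0, 8.16, 0 and 0.363 FPKM and HLA-DRB1 at 0, 6.93, 0 and 0.0283 FPKM; only HCT116 was above 1 FPKM. Their activator CIITA stood at 0.175, 1.28, 0.237 and 0.527 FPKM, so it too was above 1 FPKM in HCT116 alone. Its ratio was 2-fold or less in every line, but the added 1 FPKM understates changes at such low values. The invariant chain CD74 stood at 1.22, 1.13, 0 and 0.459 FPKM. Another run of 3 on chromosome 6 held PLA2G7, ADGRF1 and TNFRSF21; the death receptor TNFRSF21 was already expressed in every line, at 19.7, 115, 28.7 and 29.1 FPKM. HBG2, a fetal globin, was listed at 0, 6.37, 0 and 0.571 FPKM beside AC104389.4 at 0.0656, 14.6, 0.139 and 0.925 FPKM.

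Several of the HCT116-only genes are known from neurons, although the prepared list of nervous system and neuroendocrine genes did not lean towards HCT116 as a whole. TUBB4A, a brain beta-tubulin, was listed at 0, 24.2, 0 and 0.737 FPKM and SEMA6B, a transmembrane semaphorin that guides axons, at 0, 32.6, 0.274 and 0.928 FPKM. In both, HCEC-1CT was listed at 0 and DLD-1 and SW620 were under 1 FPKM. MSI1, an RNA-binding protein of neural and intestinal stem cells, stood at 0.0107, 14.6, 0.0550 and 0.0117 FPKM. MAPT, the microtubule protein tau, stood at 0.0334, 13.4, 1.06 and 1.01 FPKM, and APLP1, a relative of the amyloid precursor protein, at 0.533, 28.6, 0.250 and 2.06 FPKM; the 2 genes were looked at after their values were seen. PLPPR1, a membrane protein of neurons, was listed at 0, 12.4, 0 and 0.0140 FPKM, with 40.7% of it from a transcript not in GENCODE 29. TMEM59L was at 0.739, 33.9, 0.00922 and 0.496 FPKM, but 74.8% of the HCT116 value came from a transcript annotated as a retained intron. Of the 15 measured members of the list 6 were 2-fold or more higher in HCT116 and 5 lower, against 26.9% higher and 13.1% lower over all genes. Their median log2 ratio was 0.16, and -1.41 with a minimum of 5 FPKM. NCAM1, a neural adhesion molecule (0.0113, 3.07, 0 and 0.0884 FPKM), and PRPH, the filament peripherin (0, 4.44, 0 and 0.969 FPKM), were HCT116-only, SCG2, a secretory granule protein, had the largest ratio (3.62), and UCHL1, a ubiquitin hydrolase of neurons, had the lowest (-5.18; 35.3, 0, 0.0543 and 0 FPKM).

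Other HCT116-only increases fell in several functions. KRTAP2-3, a keratin-associated protein of hair with a close copy in KRTAP2-4 (chromosome 17, 41059240 to 41065876), stood at 0.183, 58.8, 0.145 and 0.601 FPKM. CST6, the secreted protease inhibitor cystatin E/M (chromosome 11, 66011841 to 66013505), was listed at 0, 39.2, 0.279 and 0.549 FPKM, and RBP7, a retinol-binding protein, at 0, 24.3, 0.0983 and 0.0809 FPKM. HCT116 alone passed 1 FPKM for these genes too. ISYNA1, which makes inositol phosphate from glucose 6-phosphate (chromosome 19, 18434388 to 18438301), was present in every library, at 2.40, 84.1, 1.52 and 5.13 FPKM, and TLE2, a corepressor of the Groucho family, stood at 0.509, 33.4, 1.01 and 1.02 FPKM. For ISYNA1 the leading transcript in HCT116 (28.3%) and in HCEC-1CT (35.0%) was the same retained-intron form. SLC22A31, a putative organic anion transporter, stood at 0.0178, 24.9, 0.0224 and 0.348 FPKM, OLFM2, a secreted olfactomedin, at 0.151, 20.3, 0.120 and 0.523 FPKM, and ADGRF1, an adhesion receptor, at 0, 17.9, 0.412 and 0.0536 FPKM. RPE65, the retinoid isomerase of the eye, was listed at 0, 17.6, 0 and 0 FPKM. Of the RPE65 value 99.5% came from a transcript that GENCODE 29 does not hold, and the unnamed loci XLOC_000989 (chromosome 1, 68385481 to 68391954; 0.0341, 134, 0.1003 and 2.32 FPKM) and XLOC_003732 (chromosome 1, 68385354 to 68391947; 0.110, 12.1, 0.0172 and 0.0643 FPKM) lie at the same place, so the signal cannot be assigned to the annotated RPE65 messenger RNA.

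Among genes that are not protein coding, the entry with the largest ratio of the whole comparison was a microRNA gene. MIR1244-1 (chromosome 2, 231713314 to 231713398) stood at 0.102, 665, 0.134 and 0.0770 FPKM, a ratio of 9.24. It lies inside PTMA, the gene of prothymosin alpha, which stood at 44.7, 671, 262 and 259 FPKM, and HCT116 was above the other lines in it too, so fragments of PTMA and of the microRNA gene cannot be told apart in these values. Its mature form is given with the seed, bases 2 to 8, in capitals (chr2:231713368-231713393, plus strand, RefSeq, GRCh38.p14); mature microRNAs were not measured here.
hsa-miR-1244: aAGUAGUUgguuuguaugagaugguu

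RPL32P29, a processed pseudogene of RPL32, stood at 0.239, 87.97, 0.242 and 0.165 FPKM, and RPL32 itself at 142, 268, 108 and 245 FPKM; near-identical copies can exchange fragments, so the pseudogene value is uncertain. Of the loci that the tables leave unnamed, XLOC_003704 (chromosome 1, 65644602 to 65645065) was listed at 0, 54.2, 0 and 0.332 FPKM, XLOC_040442 (chromosome 4, 87924433 to 87924712) at 0, 59.9, 0 and 0.724 FPKM and XLOC_041148 at 0, 20.6, 0 and 0 FPKM. Farther along chromosome 4 SPP1, the gene of the secreted protein osteopontin, was HCT116-only too (chromosome 4, 87975650 to 87983426; 0, 3.15, 0.0257 and 0.0209 FPKM).

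**Figure D2:**
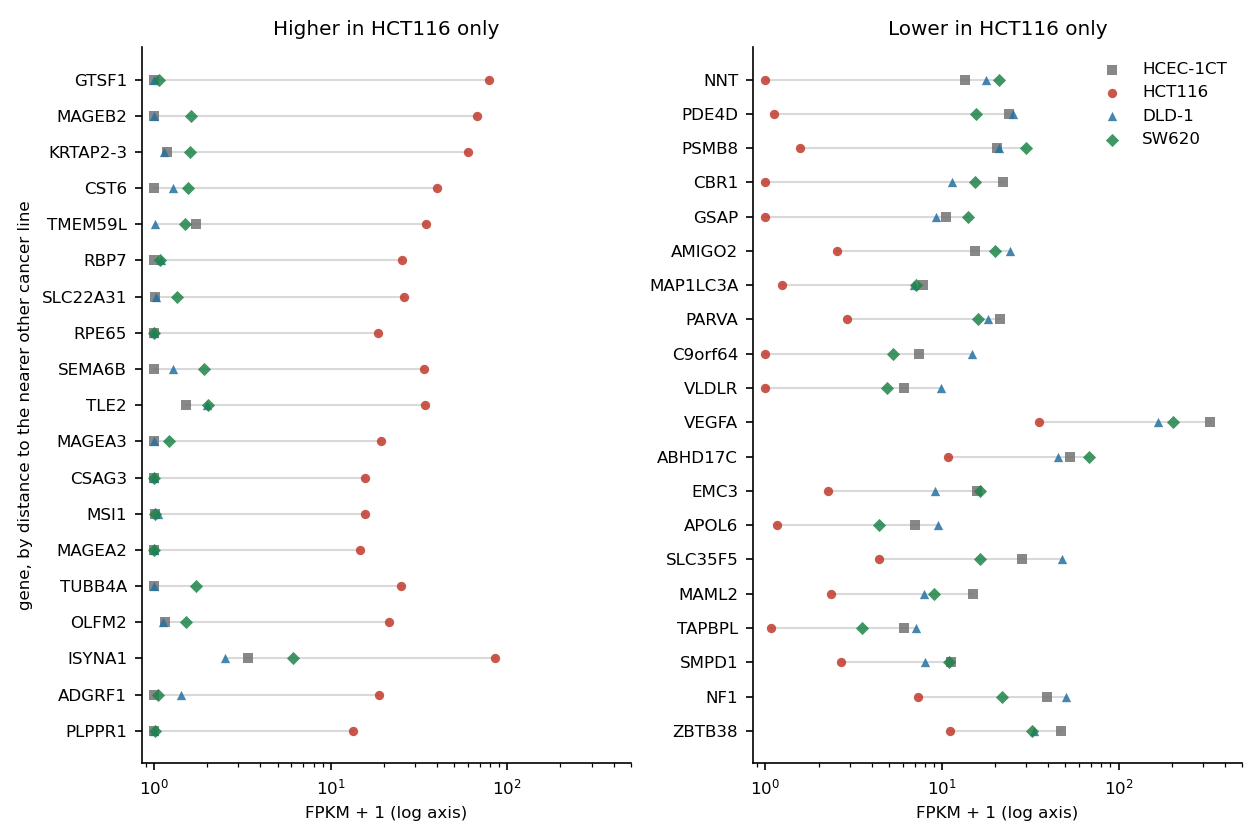
FPKM + 1 on a log axis in the 4 lines for the leading protein-coding genes per direction (19 higher, 20 lower) that were 4-fold or more from HCEC-1CT in HCT116 only, ordered from the top by the distance between the HCT116 ratio and the nearer ratio of DLD-1 or SW620. Among the higher genes the HCT116 point (red) stands alone on the right, up to 84.1 FPKM for ISYNA1, and among the lower genes it stands alone on the left, with NNT, CBR1, GSAP, C9orf64 and VLDLR listed at 0.

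The lower HCT116-only genes included several that were well expressed in every other line. NNT, the mitochondrial transhydrogenase that makes NADPH (ENSG00000112992, chromosome 5, 43602692 to 43707405), was listed at 12.4, 0, 16.7 and 20.03 FPKM. Its antisense neighbour NNT-AS1 was likewise listed at 3.98, 0, 3.55 and 6.36 FPKM. CBR1, a carbonyl reductase (ENSG00000159228, chromosome 21, 36069941 to 36073166), was listed at 21.2, 0, 10.4 and 14.3 FPKM, and GSAP, an activator of gamma-secretase (chromosome 7, 77310751 to 77416400), at 9.58, 0, 8.24 and 13.1 FPKM. The HCT116 library stood apart from the other 3 in each of these genes. At the depth of the HCT116 library the HCEC-1CT level would have given about 1357 fragments for NNT, 694 for CBR1 and 551 for GSAP. Whether an exact 0 is a failed estimate was not tested. VLDLR, a receptor for lipoproteins and reelin (5.12, 0, 8.83 and 3.88 FPKM), and C9orf64 (6.46, 0, 13.9 and 4.31 FPKM) were also listed at 0 in HCT116, where their HCEC-1CT levels would have given 419 and 399 fragments. SETD4 overlaps CBR1 and CCDC146 overlaps GSAP in position; no source used here says whether the counting used strand.

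Signalling genes with lower values in HCT116 only had residual expression. PDE4D, a phosphodiesterase that breaks down cyclic AMP (chromosome 5, 58969038 to 60522120), stood at 23.01, 0.124, 24.4 and 14.5 FPKM, a ratio of -4.42. NF1, the Ras GTPase activator neurofibromin (chromosome 17, 31094927 to 31382116), stood at 38.1, 6.35, 49.3 and 20.998 FPKM, and SPRY2, a feedback inhibitor of receptor tyrosine kinase signalling, at 32.99, 5.86, 16.3 and 47.7 FPKM. HCT116 was the lowest of the 4 libraries in all 3 genes. MAML2, a coactivator of Notch, stood at 14.01, 1.35, 6.93 and 8.01 FPKM and NCSTN, the gamma-secretase subunit nicastrin, at 44.3, 10.3, 35.2 and 21.9 FPKM. PARVA, which links integrins to actin, stood at 20.3, 1.90, 17.3 and 14.95 FPKM, AMIGO2, an adhesion protein, at 14.4, 1.53, 23.2 and 19.1 FPKM and MAP1LC3A, an autophagy protein, at 6.78, 0.247, 5.92 and 6.16 FPKM. TMSB4X, the actin-binding thymosin, was abundant in every line but lowest in HCT116, at 1839, 438, 1077 and 2711 FPKM; its pseudogene TMSB4XP8 was likewise lowest there (188, 41.9, 121 and 313 FPKM) and can share its fragments. The remaining protein-coding members of the leading 20 were ABHD17C, APOL6, EMC3, SLC35F5, SMPD1, TAPBPL and ZBTB38, with ratios from -2.80 to -2.08. In the list of MAP kinase feedback and output genes, 5 of 27 members were 2-fold or more higher in HCT116 and 5 lower. The phosphatase DUSP4 had the largest ratio (1.57, 90.6, 2.68 and 74.96 FPKM).

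Antigen processing genes were low in HCT116 in part. PSMB8, a catalytic subunit of the immunoproteasome (chromosome 6, 32840717 to 32844703), stood at 19.5, 0.572, 19.9 and 28.7 FPKM, and only HCT116 was under 1 FPKM. TAPBPL, an editor of peptides on MHC class I, stood at 5.10, 0.0710, 6.11 and 2.55 FPKM. ERAP1, which trims peptides for MHC class I, stood at 26.1, 1.57, 7.52 and 11.1 FPKM and TAPBP, tapasin, at 92.7, 19.1, 63.7 and 36.7 FPKM; both were lowest in HCT116 but below HCEC-1CT in the other cancer lines as well. Of the 20 measured genes of antigen presentation 7 were 2-fold or more lower in HCT116 and 2 higher (HLA-DRA and HLA-F), with a median ratio of -0.76 beside 0.27 over all genes compared. In DLD-1, 10 were lower and 1 higher, with a median of -0.91, so the low side was not confined to HCT116. The class I heavy chain HLA-B stood at 171, 253, 10.5 and 156 FPKM and B2M, its partner, at 479, 146, 44.1 and 292 FPKM; DLD-1, not HCT116, was the lowest in both. HLA genes are polymorphic and similar to each other, which makes their values less certain.

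VEGFA, the angiogenic growth factor and a target of the hypoxia-inducible factors (ENSG00000112715, chromosome 6, 43770184 to 43786487), was lower in HCT116 only by the rule, at 326, 34.3, 166 and 203 FPKM. Its ratios were -3.21, -0.97 and -0.69, so DLD-1 lay just inside the 2-fold limit. HCT116 was the lowest library, and the others lay between 166 and 326 FPKM. In all 4 libraries VEGFA was not at a low level, and the retained-intron form VEGFA-215 was the leading transcript in HCT116 (45.7%) and HCEC-1CT (56.9%). Of 27 genes of the hypoxia response 15 were 2-fold or more lower in HCT116 and 3 higher, with a median of -1.45. In DLD-1, 9 were lower and 4 higher, with a median of -0.39, and in SW620 10 and 6, with a median of -0.69. The lowest in HCT116 were LOX (-7.22), which cross-links collagen, CA12 (-5.69), a carbonic anhydrase, VEGFA, and PFKFB4 (-3.04), a regulator of glycolysis. For LOX and CA12 the other cancer lines were as low (-7.22, -7.10 and -6.88 and -5.69, -6.58 and -5.45). Members whose HCT116 level was below both other cancer lines included the mitophagy receptor BNIP3L (144, 50.5, 197 and 108 FPKM), the lipid droplet protein HILPDA (85.4, 28.1, 71.2 and 99.99 FPKM) and the oxidase ERO1A (98.3, 35.3, 124 and 139 FPKM). The glucose transporter SLC2A1 (39.95, 179, 489 and 1129 FPKM) and the oxygen sensor EGLN3 (0.789, 6.84, 91.2 and 89.96 FPKM) were higher than in HCEC-1CT in all 3 cancer lines and least so in HCT116.

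TXNIP lay on opposite sides of HCEC-1CT in HCT116 and in the other cancer lines. Its level (ENSG00000265972, chromosome 1, 145992435 to 145996600) was listed as 95.1, 0, 476 and 904 FPKM. At the HCT116 depth the HCEC-1CT level would have given about 7037 fragments. Among 14 genes of glucose sensing and the thioredoxin system 6 were 2-fold or more higher and 3 lower in HCT116. ARRDC4, an arrestin relative of TXNIP and another target of MondoA, was highest in HCT116, at 6.63, 52.2, 22.7 and 16.7 FPKM, the opposite of TXNIP. MLXIPL, which encodes ChREBP, was listed at 0, 19.3, 5.84 and 7.41 FPKM, MLXIP, which encodes MondoA, at 16.5, 15.1, 21.8 and 13.9 FPKM and their partner MLX at 22.7, 23.8, 23.3 and 25.2 FPKM; HCT116 lay within or above the range of the other lines for these factors. SLC2A12, a glucose transporter, was HCT116-only higher (0.110, 5.88, 1.19 and 0.457 FPKM), and TXNRD1, thioredoxin reductase, was highest in HCT116 (66.04, 187, 59.5 and 48.9 FPKM). The arrestin relative ARRDC3 stood at 73.9, 24.6, 74.3 and 22.9 FPKM and the transporter SLC2A3 at 53.8, 19.4, 0.819 and 173 FPKM.

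HIST1H1B, which encodes a linker histone, had the same pattern as TXNIP. It was listed at 14.9, 0, 296 and 76.2 FPKM (chromosome 6, 27866768 to 27867576), and the linker histone HIST1H1D at 63.7, 0, 149 and 109 FPKM. HCT116 was at 0 in both, and the lowest of the other values was 14.9 FPKM. Other linker histones were expressed in HCT116, with HIST1H1C at 109, 336, 531 and 813 FPKM, HIST1H1E at 74.5, 134, 272 and 182 FPKM and H1F0 at 93.6, 259, 86.5 and 574 FPKM. Of the 23 linker and core histone genes 9 were 2-fold or more higher in HCT116 and 3 lower, whereas 17 were higher and 0 lower in DLD-1. HIST1H3B, a core histone, had the largest HCT116 ratio (2.03, 126, 434 and 64.8 FPKM). HIST1H2BN overlaps HIST1H1B, and histone genes resemble each other, so single values are uncertain; most replication-dependent histone transcripts lack a poly(A) tail.

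CPA4 and FLNC were split in the other direction. CPA4, a secreted carboxypeptidase (ENSG00000128510, chromosome 7, 130293134 to 130324180), stood at 5.49, 54.2, 0.120 and 0.218 FPKM, with HCT116 the highest library and DLD-1 and SW620 below HCEC-1CT (ratios 3.09, -2.53 and -2.41). FLNC, the muscle filamin that cross-links actin (ENSG00000128591, chromosome 7, 128830377 to 128859274), stood at 9.57, 70.1, 0.0390 and 0.852 FPKM (ratios 2.75, -3.35 and -2.51). Its antisense neighbour FLNC-AS1 was HCT116-only higher, at 0.947, 8.87, 0.00439 and 0.0795 FPKM, and without strand the 2 cannot be told apart in the overlap. FLNA, the widely expressed filamin, did not follow, at 203, 104, 71.2 and 208 FPKM. These 4 genes, TXNIP, HIST1H1B, CPA4 and FLNC, were the only ones of the 18637 that were 4-fold or more from HCEC-1CT in 1 direction in HCT116 and in the opposite direction in both other lines.

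Mitochondrially encoded messenger RNAs were higher in HCT116. Of the 13, which encode subunits of the respiratory chain and ATP synthase, 12 were 2-fold or more higher than in HCEC-1CT and 0 lower, with a median of 3.51, beside 1.03 in DLD-1 and 1.66 in SW620. MT-CYB, the cytochrome b of complex III, was HCT116-only, at 428, 3282, 639 and 593 FPKM. MT-ND3 (122, 2962, 244 and 388 FPKM), MT-CO2 (593, 12397, 1171 and 3253 FPKM), MT-ND4 (451, 8027, 99.5 and 2544 FPKM) and MT-ND5 (152, 2574, 603 and 504 FPKM) had the largest ratios. HCT116 was the highest library for each of them, and MT-ND4 was below HCEC-1CT in DLD-1. The share of mitochondrial RNA, 10.6% in HCT116 and 1.79% in HCEC-1CT, moves with this list by definition. Of 33 nuclear genes of the respiratory chain 15 were 2-fold or more higher and 0 lower, with a median of 0.94, beside 8 higher and a median of 0.75 in DLD-1 and 20 higher and 1.11 in SW620. Of 29 mitochondrial ribosomal proteins 15 were higher in HCT116 and 0 lower, with a median of 1.03, beside 8 higher and 0.79 in DLD-1 and 17 higher and 1.22 in SW620. For both of these lists the SW620 median was above that of HCT116.

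Among 16 genes of mitochondrial biogenesis and DNA maintenance 6 were 2-fold or more higher in HCT116 and 0 lower. TWNK, the mitochondrial DNA helicase (chromosome 10, 100987367 to 100994401), was HCT116-only at 2.81, 18.04, 3.96 and 4.26 FPKM, and PPARGC1B, a coactivator of mitochondrial genes, at 0.0493, 3.34, 0.880 and 0.482 FPKM. The mitochondrial RNA polymerase POLRMT had the largest ratio of the list (9.21, 55.4, 15.2 and 27.7 FPKM), and its highest value was in HCT116. TFAM, which packages mitochondrial DNA, was not higher, at 11.96, 8.12, 11.2 and 17.1 FPKM. TOP1MT, the mitochondrial topoisomerase, was also HCT116-only, at 5.28, 27.5, 7.74 and 8.56 FPKM, and was looked at after its value was seen.

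Ribosomal protein genes were higher in HCT116 than in HCEC-1CT in most cases. Of 45 proteins of the large subunit 34 were 2-fold or more higher and 0 lower, with a median of 1.38; the counts were 3 and 0 in DLD-1 and 12 and 0 in SW620, with medians of 0.41 and 0.61. Of 32 proteins of the small subunit 24 were higher and 0 lower in HCT116, with a median of 1.40. In DLD-1, 9 were higher, and in SW620 10 were higher and 1 lower, with medians of 0.51 and 0.81. These stood beside 26.9%, 25.9% and 24.8% of all genes at 2-fold or more higher in the 3 lines, and 13.1%, 12.9% and 14.1% lower. With median-ratio scaling the HCT116 medians were 0.99 and 1.02, so the direction was kept. The difference between the lines could not be tested.

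Within the ribosome, RPL13 (230.4, 939.5, 358 and 318 FPKM), RPL14 (57.9, 394, 53.5 and 90.4 FPKM), RPL8 (283, 1360.2, 523 and 557 FPKM), RPS16 (282, 1229.7, 276 and 541 FPKM) and RPS18 (529, 2171, 812 and 876 FPKM) were HCT116-only. RPL37A had the largest ratio of the large subunit (50.2, 432, 51.98 and 136 FPKM) and RPS24 that of the small one (90.9, 606, 115 and 675 FPKM). In RPL37A HCT116 was the highest library, whereas RPS24 was highest in SW620. RPS28, at 84.5, 80.2, 90.2 and 27.1 FPKM, was the only small-subunit protein below HCEC-1CT in HCT116. Many of these genes have pseudogenes that can exchange fragments with them.

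Genes for making ribosomes were also higher in HCT116 in most cases. Of 29 nucleolar and assembly factors 17 were 2-fold or more higher in HCT116 and 0 lower, with a median of 1.19, against 7 and 1 in DLD-1 and 5 and 1 in SW620. BOP1, which processes large-subunit RNA, had the largest ratio, at 4.40, 70.2, 11.7 and 17.3 FPKM, followed by NOLC1 (9.95, 72.5, 19.6 and 25.3 FPKM) and the methyltransferase fibrillarin, FBL (23.4, 132, 51.5 and 46.6 FPKM). HCT116 was the highest library for all 3. RRP9, a protein of the U3 snoRNP, was HCT116-only at 5.42, 26.7, 6.83 and 10.3 FPKM. MYC, the transcription factor that drives ribosome production in many cells, stood at 8.26, 80.8, 17.5 and 57.8 FPKM, and PVT1, the noncoding gene beside it on chromosome 8, was HCT116-only at 4.19, 33.8, 7.15 and 4.43 FPKM. Among 20 snoRNA host genes and related noncoding RNAs 11 were higher and 5 lower. SNHG6 (9.03, 154, 23.02 and 52.6 FPKM) led the increases, and MEG3 (70.3, 0, 0 and 0.00400 FPKM), NEAT1 (181, 3.73, 253 and 37.04 FPKM) and MALAT1 (339.6, 83.2, 1069 and 322 FPKM) led the decreases. NEAT1 and MALAT1, abundant nuclear noncoding RNAs, were lowest in HCT116.

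**Figure D3:**
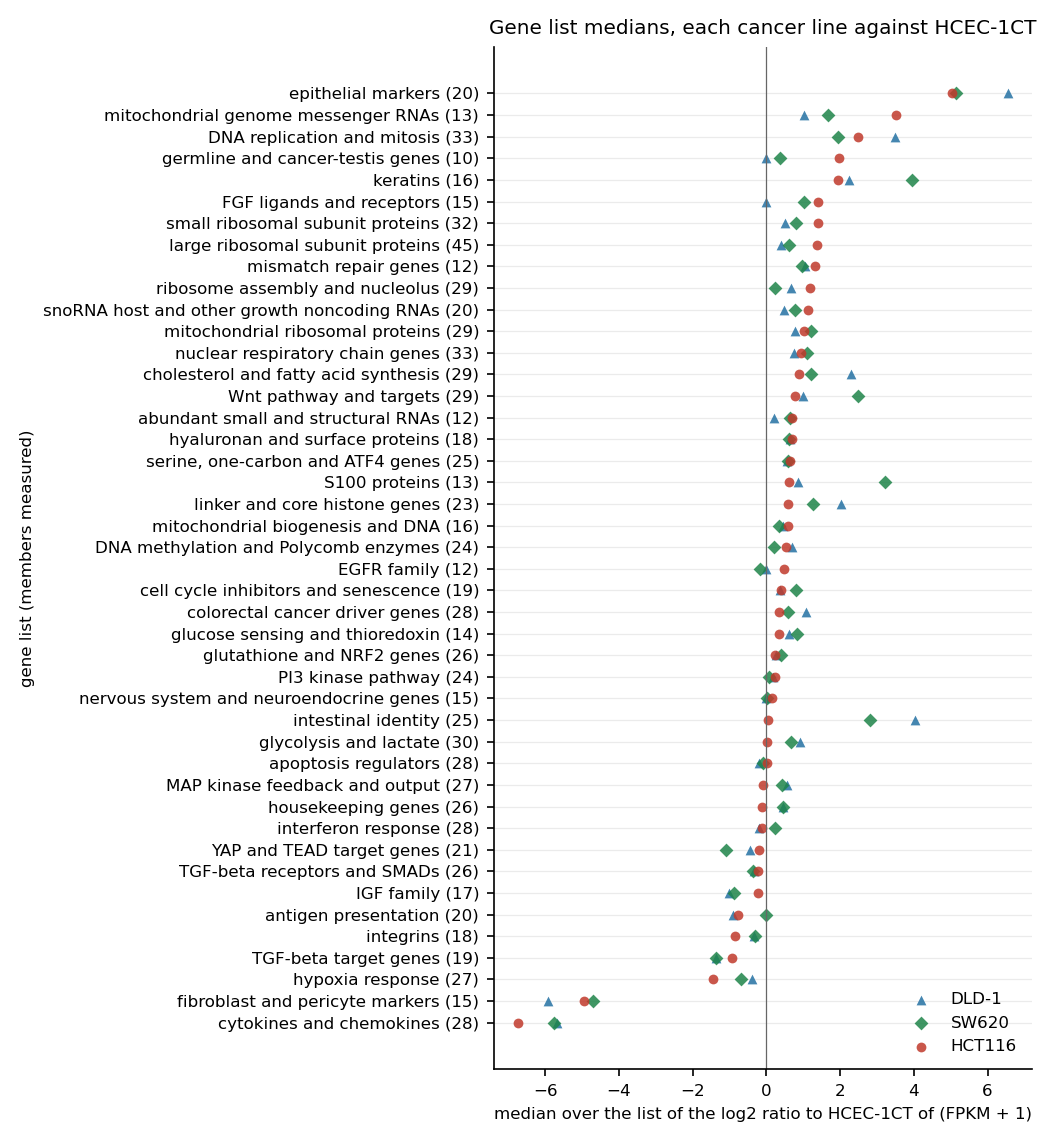
Median log2 ratio to HCEC-1CT of gene lists with 10 or more measured members, for HCT116 (red), DLD-1 (blue) and SW620 (green); the number measured is in parentheses. In HCT116 the mitochondrial messenger RNAs (3.51) and the ribosomal proteins (1.38 and 1.40) stand to the right of the other lines, and the hypoxia response (-1.45) stands to their left; most intestinal identity genes were under 1 FPKM in HCEC-1CT and HCT116, so their HCT116 median (0.04) compares values near 0.

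Intestinal identity genes were mostly near 0 in HCT116, as in HCEC-1CT. Of the 30 genes of the list HCEC-1CT had 27 under 1 FPKM and HCT116 had 23, while DLD-1 had 7 and SW620 had 9. Of 25 measured genes 6 were 2-fold or more higher in HCT116 and 1 lower, with a median of 0.04 that rests on these low values. In DLD-1, 23 were higher and 0 lower, and in SW620 18 and 1, with medians of 4.02 and 2.81. Members that passed the filter on low values only through DLD-1 or SW620 had to differ there. CDX2, the transcription factor of intestinal epithelium, was listed at 0, 3.27, 70.8 and 6.04 FPKM, HNF4A at 0, 2.63, 17.5 and 24.4 FPKM and KRT20, a keratin of differentiated colon cells, at 0, 2.94, 105 and 8.26 FPKM. HCT116 was above HCEC-1CT but far below DLD-1 in all 3. AGR2, TFF3, TSPAN8, ASCL2 and LGR5, genes of goblet cells, secretory cells and crypt stem cells, were listed at 0 in HCEC-1CT and in HCT116; ASCL2, for instance, had 117 FPKM in DLD-1 and 43.7 in SW620.

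Wnt genes in HCT116, whose beta-catenin is mutant while APC is intact, were higher in some cases and absent in others. Of 29 measured genes 13 were 2-fold or more higher and 3 lower, with a median of 0.79. DLD-1 had 15 higher and 1 lower (median 1.00) and SW620 20 and 3 (median 2.49), so the HCT116 median was the lowest of the 3 cancer lines. SOX9 (6.44, 6.52 and 7.11), DKK1 (5.52, -0.50 and 3.94), RNF43 (4.07, 5.85 and 4.81) and NOTUM (3.19, -0.39 and 5.74) had the largest ratios. DKK1, a secreted inhibitor of Wnt, was highest in HCT116, at 0.417, 63.9, 0 and 20.8 FPKM, and listed at 0 in DLD-1. TCF7L1, a repressive member of the TCF family (chromosome 2, 85133410 to 85310388), was HCT116-only at 0.210, 9.69, 0.404 and 0.524 FPKM. AXIN2, the feedback inhibitor, stood at 0.767, 8.16, 234 and 55.4 FPKM, so HCT116 was above HCEC-1CT and below both other lines. LEF1, a TCF family activator, was listed at 1.35, 0, 12.2 and 2.39 FPKM.

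Colorectal cancer driver genes differed in both directions, with 9 of 28 members 2-fold or more higher in HCT116 and 4 lower. MSH3, a mismatch repair gene, stood at 5.83, 1.92, 17.3 and 10.7 FPKM and TGFBR2, the type II TGF-beta receptor, at 35.7, 12.2, 25.6 and 36.6 FPKM; HCT116 was the lowest library in both. PIK3CA, the catalytic subunit of PI3 kinase, stood at 11.5, 4.77, 8.46 and 5.52 FPKM. Of the 12 measured mismatch repair genes 7 were higher and 3 lower. BRAF, a kinase of the MAP kinase cascade, stood at 15.3, 7.44, 24.01 and 13.5 FPKM and CTNNB1, beta-catenin, at 61.3, 50.8, 111 and 141 FPKM; the HCT116 value was the lowest of the 4 in both. SMAD4, a signal carrier of TGF-beta, was level between HCEC-1CT and HCT116 and nearly absent in SW620 (30.8, 30.9, 43.8 and 0.156 FPKM). The drivers 2-fold or more higher in HCT116 included the Wnt genes SOX9, RNF43, AXIN2 and TCF7L2 together with ERBB3, POLE and FBXW7, with ratios from 1.16 (FBXW7) to 6.44 (SOX9). ARID1A (0.36), APC (0.65), AMER1 (0.35), MSH6 (0.49), PMS2 (0.87), ERBB2 (0.94), NRAS (0.29), SMAD2 (0.24), ACVR2A (0.00) and CDKN2A (-0.91) were under 2-fold.

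Serine and amino acid genes were partly higher in HCT116. Of 25 genes of serine, one-carbon and ATF4 metabolism 12 were 2-fold or more higher and 5 lower. SLC7A5, the large neutral amino acid transporter (chromosome 16, 87830023 to 87869488), was HCT116-only at 18.03, 123, 29.9 and 34.3 FPKM, and its partner SLC3A2 did not follow (64.9, 45.9, 52.9 and 52.1 FPKM). ASNS, asparagine synthetase, had the largest ratio (6.99, 55.5, 26.4 and 9.40 FPKM), with HCT116 the highest library. SLC7A11, the cystine transporter, was lower in all 3 cancer lines (28.2, 5.52, 9.56 and 7.86 FPKM), and ALDH1L2, a mitochondrial folate enzyme, was the lowest of the list (12.7, 0.487, 0.0229 and 0.427 FPKM).

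HCT116-only genes shared features that the rule did not use. Of the 277 higher genes 36 lay on chromosome 19 (12.996%), 14 on X (5.05%) and 13 on 22 (4.69%), against 6.68%, 3.14% and 2.47% of all genes compared. Chromosome 19 held 10 of the 296 DLD-1-only higher genes (3.38%) and 12 of the 255 SW620-only ones (4.71%). Among lower genes it held 1 of the 42 HCT116-only, 10 of the 71 DLD-1-only (14.1%) and 2 of the 57 SW620-only ones (3.51%). A high share on chromosome 19 was therefore not particular to the HCT116-only genes. The HCT116-only genes on chromosome 19 included SEMA6B, TLE2, TUBB4A, OLFM2, ISYNA1, TMEM59L and RPS16. The median GC content of the main coding transcript was 57.4% in the HCT116-only higher genes (200 of 213 nuclear coding genes with a value), 46.3% in the lower ones and 49.7% in all genes. The same median was 48.4% in the DLD-1-only higher and 57.2% in the DLD-1-only lower genes, and 55.2% and 48.9% in the SW620-only ones, so a high GC content was also seen in sets of the other lines. The median lengths were 2595, 3116 and 2842 bases.

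The HCT116 ratio of all protein-coding genes moved with GC content and length as well, and the part of this trend in the HCT116-only set was not tested. From the sixth of coding genes with the lowest GC content to that with the highest, the median HCT116 ratio went from 0.15 to 0.61, that of SW620 from 0.14 to 0.44 and that of DLD-1 from 0.53 to 0.32. From the shortest to the longest sixth the HCT116 median went from 0.74 to 0.03, with 0.55 to 0.27 in DLD-1 and 0.67 to -0.05 in SW620. With a trend in GC content and length removed from each line, an alternative chosen after seeing the data, the set was 239 higher and 48 lower genes, and 200 of the 277 and 33 of the 42 were in it. No trend was removed from the 38 higher genes and 1 lower gene (TM4SF1-AS1) without a GC and length value. The 20 protein-coding and 5 other leading higher genes were still called, of which RPE65, PLPPR1, XLOC_003704, XLOC_040442 and XLOC_041148 had no such value. Of the lower ones CBR1, TAPBPL and SNORD3B-1 were not, and the other 18 coding and 2 noncoding genes were. Outside the leading genes, several named above as HCT116-only were not called with the trend removed. They were the ribosomal proteins RPL13, RPL8, RPS16 and RPS18, then RRP9, PPARGC1B, MAPT, NCAM1, PRPH and SPP1, and, among the lower genes, TMSB4X. The ribosomal medians became 1.19 and 1.04.

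**Figure D4:**
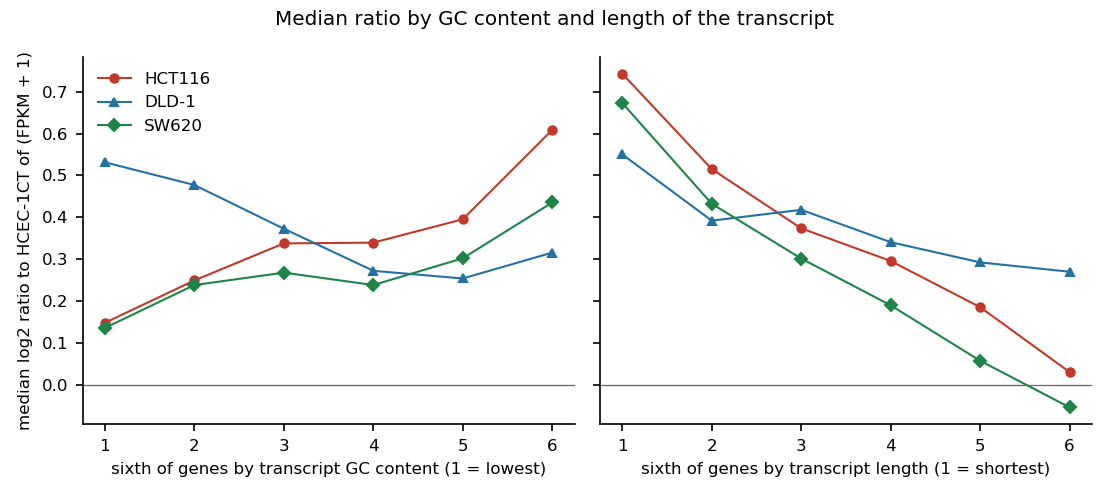
Median log2 ratio to HCEC-1CT of protein-coding genes in 6 equal groups by GC content (left) and by length (right) of the main transcript, for HCT116 (red circles), DLD-1 (blue triangles) and SW620 (green diamonds). The HCT116 median is highest for the most GC-rich group, at 0.61, and for the shortest, at 0.74.

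The transcript table was used to ask where HCT116 used another main transcript than HCEC-1CT. Of 6630 genes with a choice of transcripts and a summed 5 FPKM or more in both libraries, 360 (5.43%) had a different leading transcript with a loss of 50 percentage points or more by the HCEC-1CT form. In 49 of 5879 genes (0.833%) this was so in HCT116 only, with the HCEC-1CT form still leading and within 25 points in DLD-1 and SW620. For DLD-1 the shares were 5.19% for any switch and 1.04% (61 genes) for its own, and for SW620 5.31% and 0.799% (47 genes). Of the 49, 34 went to a coding transcript, 6 to a nonsense-mediated decay form, 3 to a retained intron, 2 to a processed transcript and 4 to a transcript not in GENCODE 29. Among the 6 largest losses were those in IP6K1, RDX, LAS1L, UGDH and ACBD5.

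IP6K1, an inositol hexakisphosphate kinase, gave 90.8%, 3.42%, 86.8% and 90.01% of its FPKM from IP6K1-201, and in HCT116 61.7% came from IP6K1-202, which was at 0% in the other libraries. UGDH, which makes UDP-glucuronate, gave 96.9%, 14.2%, 95.4% and 90.0% from UGDH-201, with 81.0% from UGDH-205 in HCT116. In both genes 3 libraries were alike and HCT116 stood apart. LAS1L, a ribosome assembly factor, went from LAS1L-202 (85.2%, 1.41%, 85.6% and 91.3%) to LAS1L-201 (88.1% in HCT116), and ACBD5, a peroxisomal tether, from ACBD5-204 (79.2%, 0.0630%, 83.6% and 78.7%) to ACBD5-205 (76.7%). RDX, the actin linker radixin, went from RDX-221 (94.8%, 10.9%, 88.5% and 95.5%) to RDX-213, a retained-intron form (53.4%). The summed level did not have to change with the switch: for IP6K1 it was 17.9, 16.5, 11.98 and 12.5 FPKM and for UGDH 31.5, 30.04, 67.7 and 45.7 FPKM, whereas for RDX it was 14.99, 39.6, 19.2 and 13.8 FPKM.

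**Figure D5:**
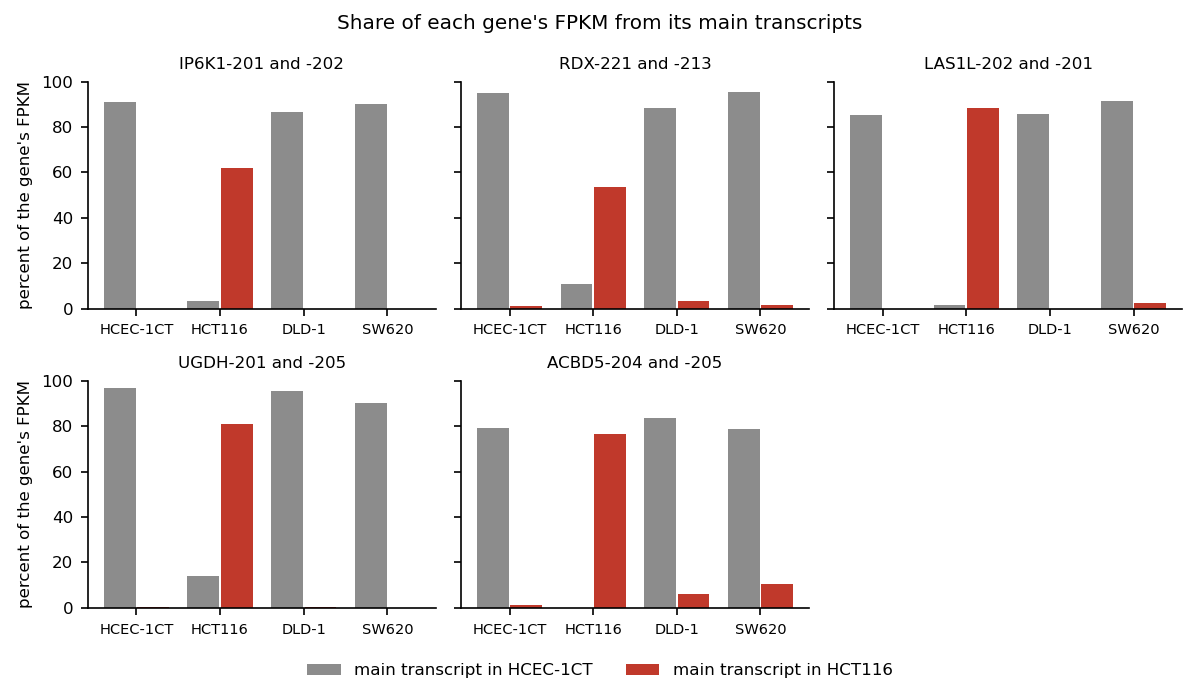
Percent of a gene's FPKM given by the main HCEC-1CT transcript (grey) and by the main HCT116 transcript (red) in the 4 lines, for 5 of the 6 largest HCT116-only switches. The grey bar leads in HCEC-1CT, DLD-1 and SW620 and the red bar in HCT116, where the HCEC-1CT form of ACBD5 gives 0.0630%.

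Some HCT116-only switches fell in genes of the groups above. APC-201, the main coding form of APC, gave 54.8%, 3.85%, 61.5% and 46.0%, although the summed APC level was 5.74, 9.61, 8.64 and 6.58 FPKM. The leading form in HCT116, the nonsense-mediated decay form APC-205, had a like share in HCEC-1CT (36.0% and 35.4%). The gain lay in APC-206 (21.7%) and APC-209 (24.8%), also annotated as coding and at 0% in HCEC-1CT. APC-205 and APC-209 have 573 and 524 bases, against 10701 for APC-201, and all these forms were at low FPKM. PSMB10, another immunoproteasome subunit, gave 78.8%, 4.45%, 74.8% and 81.4% from its coding form PSMB10-201, and in HCT116 85.1% came from the retained-intron form PSMB10-203. So PSMB8 was low in level and PSMB10 was mostly in a form annotated as not coding in the same library. ENO1, the glycolytic enolase, gave 87.6%, 30.2%, 96.0% and 93.1% from ENO1-201 and, in HCT116, 62.8% from the retained-intron form ENO1-203. GPX4, the peroxidase that protects membrane lipids, gave 75.8%, 22.4%, 90.5% and 84.2% from GPX4-210. CDKN2A, whose transcripts encode p16 and ARF, was one of the genes looked up by name. CDKN2A-201 gave 27.9, 2.73, 0 and 0 FPKM and CDKN2A-214, with an upstream start, 10.7, 10.2, 0 and 31.6 FPKM, so HCT116 was low in the first and level with HCEC-1CT in the second. Transcript shares from short reads are estimates, and their error was not given.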

How the data were processed

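RNA of spheroids from 4 colon lines was sequenced, 1 library per line. The authors deposited FPKM values per gene and per transcript; per the submitters' processing notes FastQC, HISAT2 and hg38 were used, without versions, and no source used here names the program or annotation behind the FPKM values. Of the columns in each table, 1 matched no sample and was not used. Names came from the tables, and gene types, lengths and GC content from GENCODE 29 (58275 of 58740 genes matched, 96.7% with the same coordinates). Ratios used a pseudocount of 1 FPKM and genes with 1 FPKM or more in a library; 4-fold set the calls and 2-fold the counts within lists. Depth was read from the spacing of low values. The rule for HCT116-only genes was run on simulated 8-fold changes in genes with 5 FPKM or more in HCEC-1CT. Of the 277 higher genes 229 were under 1 FPKM there, so the simulation cannot show how the rule performs for them.

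Named genes were the 20 protein-coding and up to 5 other HCT116-only genes per direction with the widest gap to the nearer line and 5 FPKM or more, the 12 largest differences each way, genes of opposite direction in the other lines, the 4 extremes and HCT116-only members of a list, every driver gene and the 6 largest transcript switches; others are said to be chosen later or belong to a list. The members and lists were chosen with earlier results of these data known. Some genes and 1 gene list are not reported here. Main alternatives were other pseudocounts, minimums, folds and scalings. Sequences are from RefSeq (GRCh38.p14). Python 3.11.15, pandas 2.3.3, numpy 2.4.6, scipy 1.17.1 and matplotlib 3.10.9 were used.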

Additional observations from a re-analysis of the deposited data

Results flagged for a closer look

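For 4 genes the HCT116 library lay on 1 side of HCEC-1CT and the DLD-1 and SW620 libraries on the other, each by 4-fold or more; with 1 library per line the difference was not tested. The log2 ratio of CPA4 was 3.09 in HCT116, and its level was 5.49, 54.2, 0.120 and 0.218 FPKM (HCEC-1CT first, then HCT116, DLD-1, SW620). The ratio of FLNC was 2.75, at 9.57, 70.1, 0.0390 and 0.852 FPKM. TXNIP had a ratio of -6.59, at 95.1, 0, 476 and 904 FPKM, and HIST1H1B had -3.99, at 14.9, 0, 296 and 76.2 FPKM. The negative ratios rest on a listed value of 0 in HCT116, so their size depends on the pseudocount.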

How the results depend on the processing

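No paired analysis was possible because each line has 1 library. The counts at 4-fold leaned most on the pseudocount and the threshold. Against 1684 higher and 933 lower genes, a pseudocount of 0.1 FPKM gave 3466 and 1896, one of 5 FPKM gave 440 and 376, a 2-fold threshold gave 5018 and 2436, and an 8-fold threshold gave 583 and 453. Against 277 higher and 42 lower HCT116-only genes, a pseudocount of 5 FPKM called 73 and 7. Of these, only 39 were among the 277 and 6 among the 42. With 0.1 FPKM, 105 lower genes were called, of which 34 were among the 42. A minimum of 5 FPKM left 180 higher genes. Median-ratio scaling called 235 higher and 50 lower genes, of which 212 were among the 277 and 21 among the 42. Scaling to the nuclear protein-coding total kept 257 of the 277 and 35 of the 42. Membership of the lower set thus leaned on the scaling more than its count did. VEGFA, CBR1 and MAML2 had DLD-1 ratios of -0.97, -0.96 and -0.92. They lay closer to the 2-fold limit than the DLD-1 shift of 0.37 that median-ratio scaling removes, so their place in the set depends on the scaling. Requiring the other lines to lie within 1.5-fold gave 170 and 13, allowing them anything under 4-fold in the same direction gave 661 and 152, asking 8-fold of HCT116 gave 68 and 6, and the rule applied to transcripts gave 926 and 143. Lists with a median of 1 or more numbered 12, against 5 with a pseudocount of 5 FPKM and 7 with median-ratio scaling, which raised the lists at -1 or less from 4 to 7. The 360 main transcript switches became 214 at a summed 10 FPKM, 860 at a loss of 30 points and 111 at 70 points, and the 49 HCT116-only switches became 25, 99 and 16. Among list medians, a minimum of 5 FPKM turned that of the nervous system genes from 0.16 to -1.41 and that of the interferon response from -0.13 to 0.43, and median-ratio scaling turned those of the PI3 kinase pathway (0.23 to -0.14), glucose sensing (0.35 to -0.02), glutathione and NRF2 genes (0.25 to -0.10), glycolysis (0.01 to -0.37) and apoptosis regulators (0.01 to -0.34). The last 3 and the MAP kinase list (-0.08 to 0.01) also changed sign with the GC and length trend removed. Over all alternatives 31 counts stayed within 1.5 times and 30 did not, 319 list medians stayed and 24 did not, and 389 values of named genes stayed and 136 did not. Part of these tallies was fixed in advance. Without the filter on low values, neither the 49 list medians nor the 75 values of named genes could change. A minimum of 5 FPKM could not change the 75 values either, so the tallies overstate how stable the results were. Removal of a GC and length trend was chosen after seeing the data. With 1 library per line the spread between cultures is unknown, so a difference between lines cannot be told apart from one between cultures or library preparations. Exact zeros in well expressed genes and the values of near-identical or overlapping genes are the least certain.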

Other observations

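Ligands and receptors of the FGF family, which signal between tissue layers, separated HCT116 from DLD-1 in places. Of 15 measured members 8 were 2-fold or more higher in HCT116 than in HCEC-1CT and 4 lower. The receptors FGFR3 (0.0918, 15.3, 5.38 and 5.49 FPKM, with HCEC-1CT first and then HCT116, DLD-1, SW620) and FGFR4 (6.22, 40.3, 1.74 and 27.1 FPKM) were highest in HCT116. FGF9, a ligand, was listed at 0, 3.40, 0 and 1.03 FPKM, and FGF19, a gut hormone, at 0, 11.7, 0 and 107 FPKM, with SW620 the highest library. The 4 lower members, FGF2, FGF5, FGF7 and FGF13, lay 4-fold or more below HCEC-1CT in every cancer line. In the EGFR family 3 of 12 members were higher and 3 lower. AREG, an EGFR ligand, stood at 15.3, 265, 58.9 and 11.6 FPKM, EREG, a related ligand, at 165, 21.6, 97.8 and 4.17 FPKM, and EGFR itself at 55.2, 38.9, 17.1 and 0.650 FPKM; AREG was highest in HCT116.

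Of 28 apoptosis regulators 5 were 2-fold or more higher in HCT116 and 8 lower. CASP4, an inflammatory caspase, stood at 42.4, 0.713, 23.1 and 9.47 FPKM and CFLAR, an inhibitor of death receptor signalling, at 59.5, 4.61, 30.6 and 10.2 FPKM; HCT116 was the lowest library in both. BIK, which opposes BCL2 proteins, was higher in all 3 cancer lines (0.231, 15.9, 30.3 and 39.1 FPKM). Of 26 TGF-beta receptors, ligands and SMADs 5 were higher and 7 lower. SMAD3, which carries the TGF-beta signal, stood at 25.3, 57.8, 13.8 and 28.4 FPKM and SMURF2, a ubiquitin ligase that acts on it, at 15.8, 40.2, 9.51 and 12.02 FPKM, both highest in HCT116, while the receptor gene TGFBR2 was lowest there. Of 28 interferon response genes 8 were higher and 7 lower, with a median log2 ratio of -0.13, and 0.43 with a minimum of 5 FPKM. IFITM3, an antiviral membrane protein, was highest in HCT116 (80.8, 217, 57.2 and 31.7 FPKM), and IFIT3, another interferon-induced gene, was lowest there (5.27, 0.387, 1.56 and 4.42 FPKM). The lists were chosen with earlier results known and are described by counts alone.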
